A study of Mus musculus with 4 samples.

Results

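The nuclear genes for the subunits of the oxidative phosphorylation complexes were followed in nestin-GFP-sorted cells of the mouse dentate gyrus. They were compared across cell classes, antagomir treatment and Project, a label of the wells whose meaning is not given. They are the rows of the count table whose symbol begins with Nduf, Uqcr, Atp5, Cox4, Cox5, Cox6, Cox7 or Cox8, together with Sdha, Sdhb, Sdhc, Sdhd and Cyc1. Of 31557 symbols, 100 met these names, and 93 remained once 7 pseudogene rows with "-ps" in the symbol were left out. They divide into 36 genes of complex I, 4 of complex II, 9 of complex III, 18 of complex IV, 15 of complex V and 11 genes that share the prefixes without encoding a subunit, 8 of them complex I assembly factors. The name fits 82 of the 93 as subunit genes, and the 11 others are given apart.

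The mice were male nestin-GFP reporter mice, in which GFP under nestin regulatory sequences marks neural stem and progenitor cells but also other cells of the niche. At 2 months of age 4 mice received an intracerebroventricular infusion of an antagomir against miR-132, a cholesterol- and LNA-modified oligonucleotide of which 2 µl were given in artificial cerebrospinal fluid, with 0.33 nmol per ml, and 4 mice received a scrambled LNA oligonucleotide. The antagomir mice were analysed at 3 months of age, and 96 sorted cells per mouse were sequenced with the full-length Smart-seq2 protocol. Odd-numbered mice were scrambled and even-numbered mice antagomir, and each of 2 Projects, L6 and L5, held 2 mice of each treatment. Mature miR-132 was not measured. The labels name 2 samples per treatment, which could not be tied to the 4 mice, so mice of the well annotation were the replicates, and p-values measure the spread between these mice.

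Oxidative phosphorylation passes electrons from NADH and succinate through complexes I and II to ubiquinone, through complex III to cytochrome c, and through complex IV to oxygen, and the proton gradient built on the way drives the ATP synthase, complex V. Most subunits are encoded in the nucleus, but the central hydrophobic subunits of complexes I, III, IV and V come from mitochondrial DNA. Several complex IV subunits and the ring subunit of the ATP synthase have isoforms from separate genes, some of them known for expression restricted to a tissue.

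The sequences that the comparisons refer to are those of the inhibited miRNA, of its sites in member 3′ UTRs, and of promoter motifs that members share. Mature miR-132-3p (chr11:75173723-75173744, plus strand, RefSeq on GRCm38.p6) is shown with its seed, bases 2 to 8, in capitals.
mmu-miR-132-3p: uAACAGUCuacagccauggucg
A site for this miRNA, either the complement of bases 2 to 8 or that of bases 2 to 7 followed by A, was present in the 3′ UTR of 7 of 92 members with an annotated 3′ UTR, which is 7.6%, against 19.8% of 17756 genes of the table. Member 3′ UTRs had a median of 280.5 bases, against 1256 bases over all genes. Bases 2 to 8 were matched in 3 of the 7, which were Cox6c, where an A follows as well (an 8mer), Ndufab1 and Ndufa12. Bases 2 to 7 followed by A were matched in the other 4, Ndufc2, Uqcrc2, Uqcrfs1 and Ndufb2. The matches of 4 of them are shown 5′ to 3′ on the strand of the gene with the matched bases in capitals, from chr15:35925889-35925912 (minus), chr7:97407764-97407786 (plus), chr7:120659382-120659404 (plus) and chr10:94220864-94220886 (plus).
Cox6c: gcaaagtaGACTGTTAactttagc
Ndufc2: atgttaacACTGTTAttaaaata
Uqcrc2: tttcagaaACTGTTAaaattgag
Ndufa12: gcagtgaaGACTGTTcctgcact

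Promoters of 300 bases were available for 77 members. The letters of 3 motifs were searched on both strands: GCGCA, any base and GCGC in a row for NRF1, CCGGAAG for the ETS family that includes GABP, and AAGATGGC for YY1, all of them factors known from promoters of respiratory chain genes. The NRF1 motif was found in 24.7% of member promoters and 7.3% of all 15395 promoters, the ETS motif in 23.4% and 13.3%, and the YY1 motif in 15.6% and 3.7%. Median GC content was 57.7% in member promoters and 58.3% in all promoters. Windows of at most 30 bases around the motif are shown in the direction of the gene, with the motif or its reverse complement in capitals, from chr13:73328479-73328508 (minus) and chr13:73328433-73328460 (minus) for Ndufs6, chr6:24527697-24527726 (minus) for Ndufa5, chr19:7217603-7217632 (minus) for Cox8a and chr4:140961266-140961295 (plus) for Sdhb.
Ndufs6, NRF1: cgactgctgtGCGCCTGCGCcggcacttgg
Ndufs6, YY1: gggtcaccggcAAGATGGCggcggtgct
Ndufa5, NRF1: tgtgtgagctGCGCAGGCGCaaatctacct
Cox8a, ETS: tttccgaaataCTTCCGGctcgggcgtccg
Sdhb, ETS: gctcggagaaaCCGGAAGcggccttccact
The promoter windows of Ndufc2 and Ndufa4, whose levels by class are given below, held none of these letters.

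Of the wells, 716 had between 500 and 6000 detected genes and entered the analysis, 353 of antagomir mice and 363 of scrambled mice, with a median of 650777 counts and 2778.5 genes per well. Counts summed per mouse lay between 43996495 and 69191485. Clustering without the members and with fixed markers gave 166 wells like radial glia-like cells (RGL) or astrocytes, named RGL/astrocyte-like,, 83 mural-like wells, 87 endothelial-like wells, 300 oligodendrocyte-like wells, 25 neuroblast-like wells, 12 fibroblast-like wells, 5 oligodendrocyte precursor-like wells and 38 unnamed wells. Within the RGL/astrocyte-like class, 34 wells formed a cluster with a median of 881 genes, 25 of them from L6 and 9 from L5. Project L6 wells had a median of 1.44% mitochondrial counts and L5 wells 0.483%. Mitochondrial counts are those of the 9 mitochondrially encoded subunits with a row in the count table. It has no row for mt-Nd4l, mt-Co2, mt-Atp6 and mt-Atp8.

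The members together held 1.57% ± 0.191 of all counts (SD, n = 8 mice). Per kb of exon, complex III genes had the highest median level at 116 CPM per kb (CPM, counts scaled to an equal total per sum), followed by complex I at 89.7, complex V at 87.5, complex II at 83.3 and complex IV at 79.2. The complex IV median includes 7 alternative isoforms among its 18 genes. Complex V holds Atp5g1, Atp5g2 and Atp5g3, which encode the same ring subunit. The order of the medians is thus no ranking of like sets. The genes named only by prefix had a median of 10.6. Cox8a, a small complex IV subunit, had the highest level per kb of all at 691, and Cox6a2, an isoform known from heart and skeletal muscle, the lowest at 0.274.

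The other ends of each complex were Ndufa2 at 362 and Ndufb2 at 5.52 CPM per kb in complex I, and Sdhb, the iron-sulfur subunit, at 114 and Sdhc, a membrane anchor, at 38.5 in complex II. Complex III ran from Uqcr11 at 203 to the core protein Uqcrc1 at 48.2. Complex V ran from the stalk subunit Atp5o at 455 to the membrane subunit Atp5l at 0.468. The Atp5o length was that of an annotated entry with 530 exon bases. Of these, 287 are shared with the gene Donson and 243 with another entry named Atp5o. Its level per kb and its place as highest depend on that entry. Atp5l, at 3.02 CPM, was divided by 6443 exon bases, and Ndufb2, at 31.1 CPM, by 5628. Their low levels per kb rest on these lengths, and how reads with several matches were counted is not given. Cox6a2, Cox7b2 and Cox8b were too low for any test, and 90 of the 93 members were tested in all cells together and between classes. The 7 pseudogene rows averaged 0.00389 to 0.107 CPM, and 32 members have exons that overlap exons of another gene. In 28 of them such a gene lies on the opposite strand, where reads cannot be told apart without strand, and in 5 (Ndufb9, Atp5g2, Atp5o, Ndufb8 and Ndufb2) on the same strand.

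RGL/astrocyte-like cells gave the members a larger share of their counts than oligodendrocyte-like cells, and mural-like cells a larger share than endothelial-like cells, in every mouse. The share was 2.06% ± 0.280 in RGL/astrocyte-like cells, 1.85% ± 0.277 in mural-like cells, 1.38% ± 0.157 in oligodendrocyte-like cells and 1.25% ± 0.203 in endothelial-like cells (SD, n = 8 mice each). Neuroblast-like cells stood at 1.78% ± 0.117 (SD, n = 5 mice with at least 3 such cells). The ranges of RGL/astrocyte-like cells, 1.62% to 2.35%, and of oligodendrocyte-like cells, 1.12% to 1.59%, did not overlap, and those of mural-like and endothelial-like cells did, with the lowest mural-like share below the highest endothelial-like share of 1.58%.

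Within a mouse, the RGL/astrocyte-like share was 1.27 to 1.78 times the oligodendrocyte-like share, with a median ratio of 1.46. Each of complexes I, II, III, IV and V was higher in RGL/astrocyte-like cells in 8 of 8 mice, with median ratios between 1.35 for complex IV and 1.67 for complex III. The 11 genes named only by prefix were higher in 5 of 8 mice, and the mitochondrially encoded subunits in 8 of 8 with a median ratio of 1.13. The mural-like share was 1.15 to 1.83 times the endothelial-like share, with a median of 1.48. Complexes I and IV were higher in mural-like cells in 8 of 8 mice, complex V in 7, complexes II and III in 6 and the genes named only by prefix in 2. No test was run on these summed shares.

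**Figure D1:**
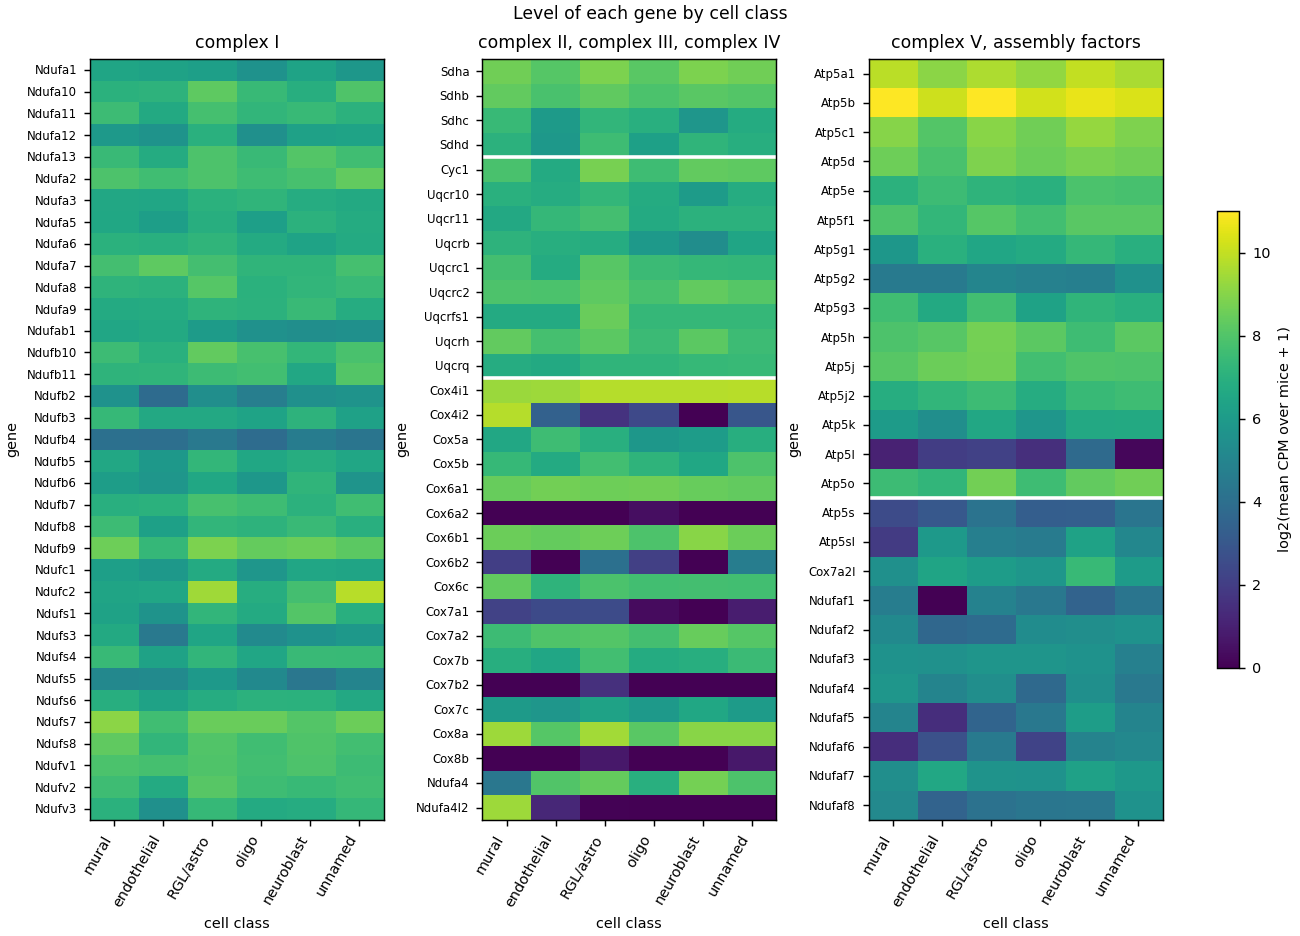
Heatmap of the levels of 92 members by cell class, as log2 of mean CPM over mice plus 1, with genes in rows grouped by complex and classes in columns. Most rows keep a like colour across classes, while Ndufa4l2 and Cox4i2 are bright in the mural-like column only, Ndufa4 is dark there, and Ndufc2 is brightest in the RGL/astrocyte-like and unnamed columns.

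The clearest difference between classes concerned 2 pairs of complex IV genes in mural-like cells, the pericytes and smooth muscle cells of vessels. Ndufa4l2 and Cox4i2 were high in mural-like cells and at or near 0 in endothelial-like, RGL/astrocyte-like, oligodendrocyte-like and neuroblast-like cells, while Ndufa4 was low in mural-like cells and present in those 4 classes. Ndufa4 encodes a subunit now assigned to complex IV despite its complex I name, and Ndufa4l2 is its paralog, known as a gene induced by hypoxia-inducible factor. Cox4i1 is the common isoform of subunit 4, and Cox4i2 the isoform known from lung and from low oxygen.

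Ndufa4l2 (ENSMUSG00000040280.10, chr10:127514967-127517154, plus strand, mm10) had a lowest value of 407, a median of 671 and a highest of 911 CPM in mural-like cells over 8 mice. In endothelial-like cells it was at or below 0.254 CPM in 7 mice and at 10.2 CPM in mouse 5. The ranges did not overlap. The 12 fibroblast-like wells, too few for the tests, had 0 to 81.9 CPM over 7 mice. Ndufa4l2 had counts in 91.6% of the 83 mural-like wells, and in 2 of 87 endothelial-like, 2.41% of 166 RGL/astrocyte-like, 0.667% of 300 oligodendrocyte-like, 0 of 25 neuroblast-like and 41.7% of 12 fibroblast-like wells.

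Cox4i2 (ENSMUSG00000009876.13, chr2:152754173-152765037, plus strand) had a lowest value of 681, a median of 782 and a highest of 1648 CPM in mural-like cells, the highest in mouse 8. Endothelial-like cells had 0 CPM in 5 mice and between 10.9 and 41.7 CPM in mice 1, 3 and 5. Again the ranges did not overlap. The highest mouse was at 16.7 CPM in RGL/astrocyte-like cells and at 34.5 CPM in oligodendrocyte-like cells. Counts were present in 89.2% of mural-like and 4.60% of endothelial-like wells.

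Ndufa4 (ENSMUSG00000029632.7, chr6:11900292-11907497, minus strand) averaged 19.7 ± 25.9 CPM in mural-like cells and 257 ± 169 CPM in endothelial-like cells (SD, n = 8 mice each). Mural-like values ran from 0 to 69.4 CPM, and 3 mice were at 0. Endothelial-like values ran from 124 to 654 CPM, all above the mural-like ones. The 654 CPM came from mouse 7, which had 3 endothelial-like wells, and the other mice lay at 124 to 271 CPM. RGL/astrocyte-like cells averaged 335, oligodendrocyte-like cells 122 and neuroblast-like cells 414 CPM. Cox4i1 (ENSMUSG00000031818.12, chr8:120668222-120674207, plus strand) kept a level of 653 ± 258 CPM in mural-like cells beside 666 ± 202 CPM in endothelial-like cells, with overlapping ranges.

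By edgeR's quasi-likelihood test with Benjamini-Hochberg adjustment, mural-like cells differed from the average of the other classes in 5 of 90 members at an adjusted p under 0.05, with 2 higher and 3 lower. Over all tested genes 8.19% were called higher and 5.24% lower, so the share of members called was below that of all genes. Ndufa4l2 was higher by a fitted log2 difference of 14.41 ± 0.97 (SE, adjusted p = 3.61e-12) and Cox4i2 by 14.93 ± 1.73 (adjusted p = 1.16e-07). Both fitted differences depend on the small counts of the other classes and are no bound. Ndufa4 fell, at -4.13 ± 1.04 (adjusted p = 0.00509).

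The other calls were Ndufc2, a complex I subunit, at -1.42 ± 0.45 (adjusted p = 0.0296), and Atp5sl, a gene named for its likeness to an ATP synthase factor, at -6.64 ± 2.18 (adjusted p = 0.0371). Atp5sl had 21.7 CPM in mouse 1 and at most 0.510 CPM in the other mural-like sums. The median log2 difference was -0.02 over the members and -0.48 over all tested genes. The 5 calls came to 3 without mouse 2, mouse 3, mouse 4 or mouse 6 and to 2 within either Project, with the calls of Ndufa4l2 and Cox4i2 past the threshold under each of 17 alternatives.

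Against endothelial-like cells alone, 3 members were higher and 1 lower, against 5.49% and 4.8% of all tested genes. The 3 were Ndufa4l2 at 12.04 ± 1.55 (adjusted p = 2.80e-06), Cox4i2 at 9.94 ± 2.31 (adjusted p = 0.00389) and the complex I assembly factor Ndufaf1 at 9.11 ± 2.78 (adjusted p = 0.0336). Ndufaf1 was at 0 in endothelial-like cells of all 8 mice. In mural-like cells it reached 163 CPM in mouse 7, which had 6 such wells, but at most 21.5 CPM in the other mice. Ndufa4 was lower at -3.94 ± 1.12 (adjusted p = 0.0177). Of the 4 calls 2 were left without mouse 3 and 1 within L5, where neither Cox4i2 nor Ndufa4 passed the threshold. Higd1b, a gene of the list of carriers and regulators that is known as a pericyte gene, was higher as well at 11.38 (adjusted p = 5.02e-05).

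In levels per kb, Ndufa4l2 made up 97.1% ± 3.94 of the pair with Ndufa4 in mural-like cells and 0.583% in endothelial-like cells. Cox4i2 made up 72.7% ± 8.36 of subunit 4 in mural-like cells and 3.08% in endothelial-like cells (SD, n = 8 mice). By wells, 66 of the 83 mural-like wells held Ndufa4l2 without Ndufa4, 10 held both, 2 held Ndufa4 alone and 5 neither. Cox4i2 was found beside Cox4i1 in 64 wells and without it in 10. Ndufa4l2 and Cox4i2 were detected together in 71 wells.

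**Figure D2:**
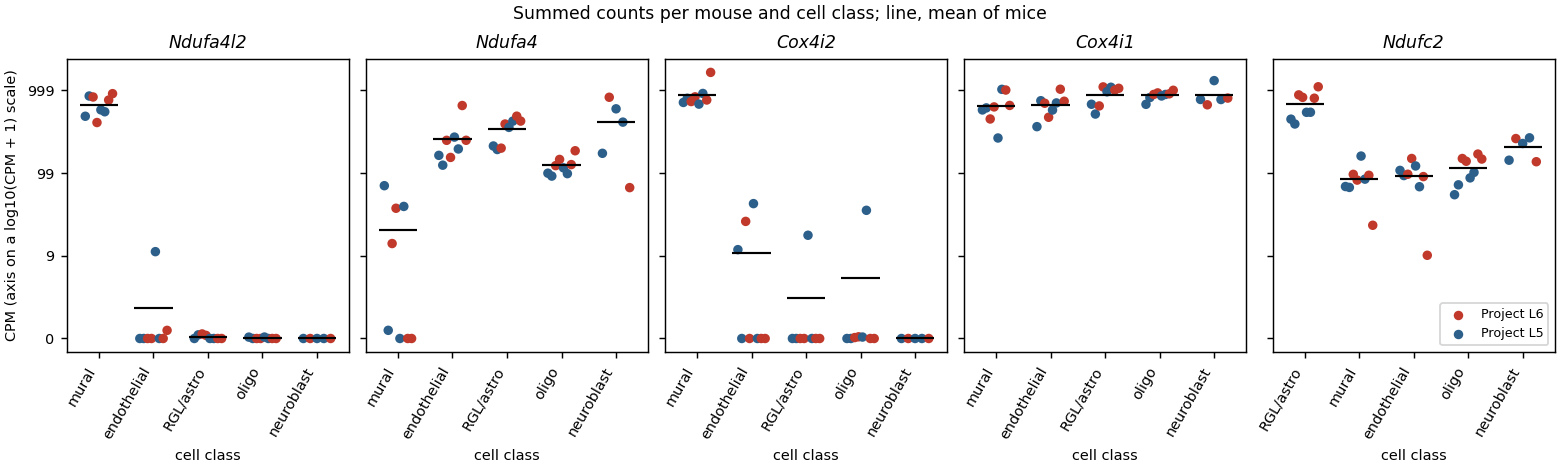
Levels of Ndufa4l2, Ndufa4, Cox4i2, Cox4i1 and Ndufc2 in CPM on a log10 axis (value plus 1), by cell class; each point is the sum over the cells of 1 mouse, coloured by Project, and lines are means over mice. Ndufa4l2 lies between 407 and 911 in mural-like cells, where Ndufa4 is at or below 69.4, while Cox4i1 has overlapping values in all classes.

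Both alternative isoforms were found among mural-like wells with and without counts of the smooth muscle gene Acta2. Ndufa4l2 was present in 17 of 20 wells with Acta2 and 59 of 63 without, and Cox4i2 in 17 of 20 and 57 of 63. Ndufa4 was present in 8 of 20 wells with Acta2 (40.0%, Wilson 95% interval 21.9% to 61.3%) and in 4 of 63 without (6.35%, with an upper bound of 15.2%). Wells with Acta2 held the smooth muscle gene Myh11 in 15 of 20 and the pericyte gene Kcnj8 in 10 of 20, against 10 and 60 of 63 wells without Acta2. Wells of 1 mouse are not independent, and no test was made. Summed mural markers lay at 51677 to 75544 CPM in mural-like sums, where endothelial markers were at 0.236 to 208, oligodendrocyte markers at 2.55 to 67.6 and RGL or astrocyte markers at 2844 to 4399 CPM. In endothelial-like sums mural markers reached 0 to 2522 CPM, and their part in the low Ndufa4l2 and Cox4i2 counts there was not tested.

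Of the ring subunit of the ATP synthase, encoded by Atp5g1, Atp5g2 and Atp5g3, Atp5g3 made up 76.9% ± 9.65 per kb in mural-like cells, 70.5% ± 5.92 in RGL/astrocyte-like cells, 56.8% ± 22.7 in endothelial-like cells and 47.5% ± 7.65 in oligodendrocyte-like cells (SD, n = 8 mice). The RGL/astrocyte-like range, 59.4% to 77.0%, lay above the oligodendrocyte-like range, 35.2% to 58.5%. Atp5g1 gave 14.6% ± 4.73 in RGL/astrocyte-like cells and 29.5% ± 3.89 in oligodendrocyte-like cells. The lengths used, of all annotated exons joined, were 4912 bases for Atp5g1, 1675 for Atp5g2 and 2181 for Atp5g3. The order of these genes within a class depends on those lengths. The isoforms Cox6a1, Cox6b1 and Cox7a2 made up at least 96.6% of their pairs on average in these 4 classes and in neuroblast-like cells. Cox7a1, the isoform known from heart and muscle, reached 3.40% in RGL/astrocyte-like cells.

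**Figure D3:**
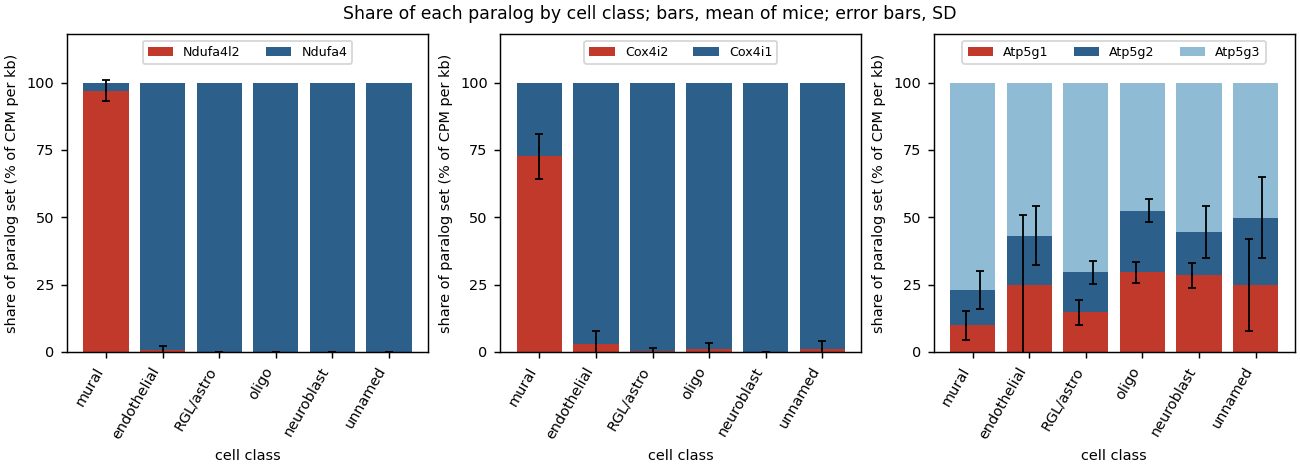
Stacked bars of the share of each paralog in the summed level per kb of its set, in percent, by cell class, for Ndufa4l2 and Ndufa4, Cox4i2 and Cox4i1, and Atp5g1, Atp5g2 and Atp5g3 (bars, mean over mice; error bars, SD). Ndufa4l2 and Cox4i2 fill most of the mural-like bars, at 97.1% and 72.7%, and little of the others.

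In RGL/astrocyte-like cells the complex I subunit gene Ndufc2 stood apart. Ndufc2 (ENSMUSG00000030647.8, chr7:97400003-97407802, plus strand) had 391 CPM at the lowest, 672 at the median and 1104 at the highest in RGL/astrocyte-like cells, against 53.7, 119 and 169 CPM in oligodendrocyte-like cells. All 8 mice were higher in RGL/astrocyte-like cells, and the ranges did not overlap. Per kb, RGL/astrocyte-like cells had 917 and oligodendrocyte-like cells 152 CPM per kb. The level was 896 CPM in the unnamed cluster, 206 CPM in neuroblast-like, 91.4 in endothelial-like and 83.6 in mural-like cells. In the unnamed cluster each of the 17 RGL or astrocyte markers was detected in at least 25% of wells. Their sum there ran from 1416 to 36456 CPM over 7 mice.

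Against oligodendrocyte-like cells, Ndufc2 was the only member called of 90, higher by 2.52 ± 0.53 (log2, SE, edgeR's quasi-likelihood test, adjusted p = 0.000796), where 9.49% of all tested genes were called higher and 7.19% lower. In this comparison 72 of 90 members lay above 0, against 46.8% of all tested genes, with a median of 0.39 against -0.13 over all genes. The complexes had medians of 0.39 (I), 0.42 (II), 0.63 (III), 0.51 (IV) and 0.39 (V), and the genes named only by prefix -0.01. Without a filter on low counts the adjusted p of Ndufc2 was 0.0531, and within L6 alone it was 0.194. Of the lists beside the members, 1 of 17 tricarboxylic acid cycle genes was called, Idh3b, higher at 1.53, and so were the coactivator Ppargc1a at 13.19 and its partner Esrra at 6.94. The mitochondrially encoded mt-Nd5 was higher at 0.97, and Sco1, a copper chaperone of complex IV, was lower at -8.51. The fitted differences of Ppargc1a, Esrra and Sco1 depend on small counts in the lower class and are no bound. Of the dissociation and immediate early genes 4 of 15 were called lower (Arc, Hspa1a, Hspa1b and Egr1), with a median of -4.56 over the list, and their part in the member differences was not tested.

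Against the average of the other 4 classes, 23 of 90 members were higher in RGL/astrocyte-like cells and 0 lower, against 22.8% and 1.61% of all tested genes. The share was near that of all genes, whose median log2 difference was 1.18, beside 1.03 over the members. Scaling by library size alone moved the median of all genes to 0.72 and left 6 calls, and without the low-gene cluster 12 remained. Leaving out mouse 2 or mouse 4 gave 13 and mouse 6 gave 11, and leaving out mouse 3 gave 14. The calls by size were Cox6b2 at 6.09, a testis isoform at 15.4 ± 16.1 CPM, Cox7a1 at 5.82, Ndufaf1 at 4.60, Ndufc2 at 3.14 (adjusted p = 5.99e-08), Ndufa4 at 2.07, the Rieske protein gene Uqcrfs1 at 1.90, Ndufa10 at 1.82, Ndufa12 at 1.81, Ndufb10 at 1.62 and Cox7b at 1.56. Relative to the median of all genes, the calls of Cox4i1 at 0.73 and of Atp5b, the catalytic subunit of the ATP synthase, at 1.01 were below it. Ndufaf1 was at 0 in endothelial-like cells and Ndufa4 was low in mural-like cells, and these levels enter the average of the other classes. Ndufa4 averaged higher in neuroblast-like than in RGL/astrocyte-like cells. Ndufc2 passed the threshold under each of 17 alternatives, at 2.56 to 3.67.

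The other classes had fewer member calls. In oligodendrocyte-like cells 5 were higher and 0 lower, against 22.6% and 2.53% of all genes, with a median of 0.55 beside 1.29 over all genes. The 5 were Cox6b2 at 5.07, Ndufaf1 at 4.61, Ndufb7 at 1.21, Atp5h at 0.88 and Cox4i1 at 0.86. The difference of Ndufaf1 includes its level of 0 in endothelial-like cells, which enter the average of the other classes. Their number was 2 without mouse 2 or mouse 8 and 3 without mouse 1, 3, 4, 5 or 7. Endothelial-like cells had 0 higher and 2 lower, against 8.9% and 7.21% of all genes, with a median of -0.64 beside -0.80. The 2 were Ndufaf1 at -10.27 and Cox8a at -1.09, and 1 was left without mouse 2, 3, 5 or 6. Cox8a was at 735 CPM in endothelial-like cells of mouse 8 and at 69.3 to 326 CPM in those of the other mice.

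Neuroblast-like cells, of which 25 were sampled, had 0 higher and 7 lower, against 4.47% and 7.86% of all genes, with a median of -0.70 beside -1.18. Of the 7, Cox4i2 and Ndufa4l2 restate the mural-like level that enters the average of the other classes, since both are at or near 0 in all other classes of the average as well. The other 5 were Uqcrb at -2.19, Ndufa7 at -1.72, Atp5h at -1.63, Cox5b at -1.60 and Atp5b at -1.02. Leaving out mouse 1 or 3 gave 1 call, mouse 6 or 8 gave 2 and mouse 5 gave 0.

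The antagomir was compared with the scrambled oligonucleotide in all cells, in oligodendrocyte-like cells and in RGL/astrocyte-like cells, the classes with at least 10 cells in every mouse. No member was called in any of the 3, nor was any of the genes tested, which is 0.0% in each. In all-cell sums, fewer cells of a type and less RNA per cell cannot be told apart, and 25.8% of antagomir wells and 20.7% of scrambled wells were RGL/astrocyte-like. On simulated data with the same design a 4-fold change was recovered in 56% of changed genes in all cells. Recovery was 57% in oligodendrocyte-like cells and 9% in RGL/astrocyte-like cells, so changes of that size could be missed. Changes were simulated only in genes above a set mean level in each treatment group. For members of lower level, such as Ndufaf6 in oligodendrocyte-like cells, recovery was not simulated.

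At an unadjusted p under 0.05, edgeR's test gave 1 member higher and 0 lower in all cells, against 0.958% and 0.855% of all genes, 2 and 0 in oligodendrocyte-like cells, against 0.835% and 1.11%, and 0 and 0 in RGL/astrocyte-like cells, against 0.894% and 0.636%. DESeq2 called 0 members as well, and 10, 13 and 9 of all genes. The log2 difference was above 0 for 63 of 90 members in all cells, 67 of 87 in oligodendrocyte-like cells and 46 of 87 in RGL/astrocyte-like cells, against 50.4%, 49.1% and 50.6% of all genes. The medians were 0.08, 0.14 and 0.01, beside 0.00, -0.01 and 0.01 over all genes.

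In oligodendrocyte-like cells the member share of counts was 1.27%, 1.59%, 1.41% and 1.58% in antagomir mice 2, 4, 6 and 8, and 1.12%, 1.39%, 1.29% and 1.41% in scrambled mice 1, 3, 5 and 7. The antagomir mouse was the higher of each pair that shared Project and sort day, but the groups overlapped. In RGL/astrocyte-like cells the shares were 1.62% to 2.25% in the 4 antagomir mice and 1.75% to 2.35% in the 4 scrambled mice, again overlapping. In oligodendrocyte-like cells the members above 0 numbered 28 of 36 in complex I, 3 of 4 in complex II, 7 of 9 in complex III, 11 of 12 in complex IV, 13 of 15 in complex V and 5 of 11 among the genes named only by prefix.

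Ndufa8 (ENSMUSG00000026895.7, chr2:36036326-36049406, minus strand), a supernumerary complex I subunit on the intermembrane space side, had the smallest unadjusted p. It stood at 130, 190, 169 and 142 CPM in oligodendrocyte-like cells of antagomir mice and at 98.2, 108, 93.6 and 115 CPM in those of scrambled mice. Each antagomir value was above each scrambled value. The log2 difference was 0.58 ± 0.19 (SE), with an unadjusted p of 0.0128 and an adjusted p of 1.0, so Ndufa8 did not pass the correction.

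Atp5c1, the gamma subunit of the ATP synthase, was at 0.47 (unadjusted p = 0.0484) in oligodendrocyte-like cells and Ndufb3 at 0.48. On the lower side stood Ndufaf6 at -2.95, Ndufaf4 at -0.84 and Ndufa6 at -0.24. Ndufaf6 was at -6.07 without mouse 2, Ndufaf4 at -0.16 without mouse 3 and Ndufa6 at -0.08 without mouse 7. In all cells the assembly factor Ndufaf5 was at 1.32 (unadjusted p = 0.0458), Ndufa10 at 0.45 and Ndufb7 at 0.28, while Ndufs4 was at -0.41, the cytochrome c1 gene Cyc1 at -0.26 and Ndufab1, the mitochondrial acyl carrier protein, at -0.24. In RGL/astrocyte-like cells the ends were Atp5s at 3.04, Ndufb7 at 0.61 and Atp5d at 0.58, and Ndufs6 at -0.71, Ndufs4 at -0.70 and Cyc1 at -0.60. None passed the correction, and leaving out 1 mouse moved 13 of the 18 treatment differences named by the rule by over 1.5 times.

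A fixed list of 12 subunits, among them Ndufs1, Sdha, Uqcrfs1, Cox5a and Atp5a1, lay between -0.26 and 0.16 in all cells. The range was -0.17 to 0.39 in oligodendrocyte-like cells and -0.60 to 0.33 in RGL/astrocyte-like cells. In this order, 8, 10 and 3 of 12 were above 0. The list is not that of the core subunits, since it holds the supernumerary Ndufab1 and leaves out Ndufv2. The 7 members with a miR-132 site lay between -0.24 and 0.14 in all cells, -0.01 and 0.41 in oligodendrocyte-like cells and -0.49 and 0.07 in RGL/astrocyte-like cells, and the smallest unadjusted p among them was 0.248, in oligodendrocyte-like cells. Cox6c, with the 8mer, was at 0.09 ± 0.26 in oligodendrocyte-like cells and at -0.16 ± 0.35 in RGL/astrocyte-like cells, and Ndufc2 at -0.01 ± 0.35 and 0.07 ± 0.35 (log2, SE). The interaction of treatment and class, RGL/astrocyte-like against oligodendrocyte-like, called 0 of 88 members and 0.0% of all genes, and the smallest unadjusted p was that of Atp5s, 0.0716.

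In mural-like cells, some mice had fewer than 10 cells, and no treatment test was made. Cox4i2 stood there at 801, 834, 916 and 1648 CPM in antagomir mice and at 713, 731, 681 and 763 CPM in scrambled mice. The groups did not overlap, with 1 antagomir mouse far above the rest. Such separation also occurs by chance, and the share of members that show it is not given here. Ndufa4l2 stood at 853, 407, 550 and 911 CPM in antagomir mice and at 485, 830, 580 and 762 CPM in scrambled mice, which overlapped.

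**Figure D4:**
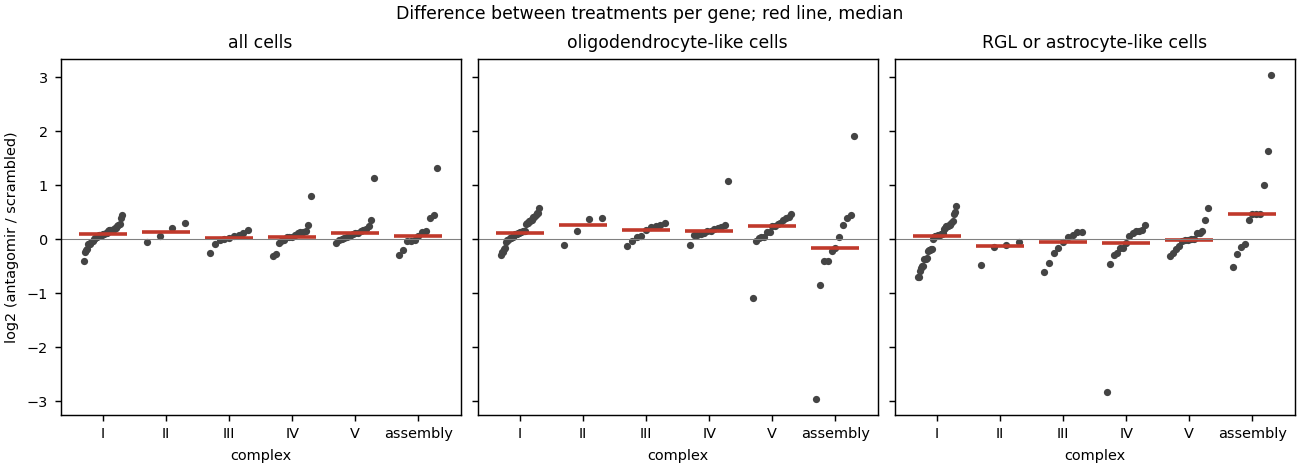
Log2 difference of antagomir minus scrambled mice for each member, by complex, in all cells, oligodendrocyte-like cells and RGL/astrocyte-like cells; points are members and red lines their medians, with the genes named only by prefix under assembly. The medians over all members are 0.08, 0.14 and 0.01, and no member passes an adjusted p of 0.05.

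More members had an unadjusted p under 0.05 between Projects than between treatments, though no member passed the correction by edgeR. Over all tested genes, 0.0194% were called higher and 0.00647% lower in L6 than in L5 in all cells, 0.0835% and 0.0278% in oligodendrocyte-like cells, and 0.0596% and 0.0% in RGL/astrocyte-like cells. At an unadjusted p under 0.05, 28 of 90 members were higher and 1 lower in all cells, against 6.12% and 6.38% of all genes. In oligodendrocyte-like cells 18 of 87 were higher and 1 lower, against 5.09% and 5.74%, and in RGL/astrocyte-like cells 5 and 2 of 87, against 2.29% and 2.2%. DESeq2 called 11 members higher and 1 lower in all cells at an adjusted p under 0.05, against 2.65% and 4.01% of all genes. It called 10 higher and 1 lower in oligodendrocyte-like cells, against 4.39% and 5.12%, and 2 higher and 0 lower in RGL/astrocyte-like cells, against 0.904% in each direction. The oligodendrocyte-like class joins 2 clusters, and the smaller one, with Arc among its leading genes, held 8.33% of L6 and 47.9% of L5 oligodendrocyte-like wells. In the larger cluster alone, chosen after seeing the data, 13 of 86 members were higher and 1 was lower by the same unadjusted threshold, against 4.67% and 3.89% of all genes, with a median of 0.26 beside 0.13.

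The median log2 difference over the members was 0.37 in all cells, 0.23 in oligodendrocyte-like cells and 0.24 in RGL/astrocyte-like cells, beside -0.01, 0.01 and 0.11 over all genes. Complex II was the exception, with medians of -0.04, -0.11 and -0.13. The member share of all counts was 1.68% ± 0.135 in L6 mice and 1.46% ± 0.182 in L5 mice (SD, n = 4 each).

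Cox7c (ENSMUSG00000017778.14, chr13:86044816-86046904, minus strand), a small complex IV subunit, was at 88.8, 94.3, 89.0 and 85.9 CPM in all cells of L6 mice and at 32.8, 27.0, 42.3 and 46.1 CPM in those of L5 mice. The Projects did not overlap and differed by 1.31 ± 0.22 (log2, SE, unadjusted p = 0.000409, adjusted p = 0.118). Ndufv2, a core subunit of the NADH-oxidising module, followed at 1.03 in all cells, 0.93 in oligodendrocyte-like cells and 1.34 in RGL/astrocyte-like cells. Ndufa5 was at 0.89 in all cells, and Ndufc2 at 0.89 in oligodendrocyte-like and in RGL/astrocyte-like cells. In RGL/astrocyte-like cells Ndufc2 had 880, 822, 803 and 1104 CPM in L6 mice and 448, 391, 542 and 542 CPM in L5 mice, with no overlap. Cox6c was at 0.63 in oligodendrocyte-like cells and Atp5c1 at 0.72 in RGL/astrocyte-like cells.

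Atp5a1 (ENSMUSG00000025428.15), the alpha subunit of the ATP synthase, went the other way. It had 517, 557, 435 and 584 CPM in L6 mice and 876, 722, 786 and 857 CPM in L5 mice in all cells. The Projects did not overlap, and the log2 difference was -0.62 (unadjusted p = 0.00687), with -0.70 in oligodendrocyte-like cells and -0.68 in RGL/astrocyte-like cells. Ndufv1, the flavoprotein that takes electrons from NADH, was at -0.45 in all cells and -0.72 in oligodendrocyte-like cells, and Uqcrc1 at -0.27 and -0.44. Without mouse 4 Ndufv1 was at -0.23 and -0.35, without mouse 5 Uqcrc1 was at -0.17 in all cells, and in the larger oligodendrocyte-like cluster alone Uqcrc1 was at -0.14. In RGL/astrocyte-like cells the membrane anchor Sdhd was at -1.25 and Uqcrc1 at -0.57, against -0.81 without mouse 5 for Sdhd and -0.33 without mouse 3 for Uqcrc1.

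The mitochondrially encoded subunits had larger differences than the members. All 8 that were tested were higher in L6 at an unadjusted p under 0.05 in each of the 3 comparisons, with median log2 differences of 1.82, 1.58 and 1.92, and 2, 3 and 3 of them passed the correction. In all cells these 2 were mt-Nd1 at 2.31 and mt-Nd2 at 2.11. Their share of counts was 1.51% ± 0.237 in L6 mice and 0.543% ± 0.124 in L5 mice. This share covers the 9 with a row in the count table, so mt-Nd4l, mt-Co2, mt-Atp6 and mt-Atp8 are missing from it. The tricarboxylic acid cycle list had 0 of 17 higher and 3 lower in all cells at an unadjusted p under 0.05, with a median of -0.31. Dissociation and immediate early genes had 13 of 15 lower in all cells, and 6 of 13 in oligodendrocyte-like cells with a median of -2.06. Their summed level in all cells was 802 to 3868 CPM in L6 mice and 5805 to 9435 CPM in L5 mice. Their part in the member differences was not tested.

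Transcript length moved with Project as well. Genes with less than 800 bases of exon had a median log2 difference of 0.25 in all cells, those of 800 to 2000 bases 0.17 and longer genes -0.05. The members had 0.30, 0.40 and 0.35 in the same bins of 14, 41 and 35 members. In oligodendrocyte-like cells the members had 0.28, 0.22 and 0.23, and all genes 0.26, 0.17 and -0.04. Values in RGL/astrocyte-like cells were 0.32, 0.24 and 0.13 for the members and 0.37, 0.26 and 0.08 for all genes. The members thus lay above all genes in each bin in all cells and oligodendrocyte-like cells, but below them in both shorter bins in RGL/astrocyte-like cells. Projects also differed in class make-up, with 28.3% of L6 and 18.2% of L5 wells RGL/astrocyte-like and 8.22% and 16.0% endothelial-like.

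**Figure D5:**
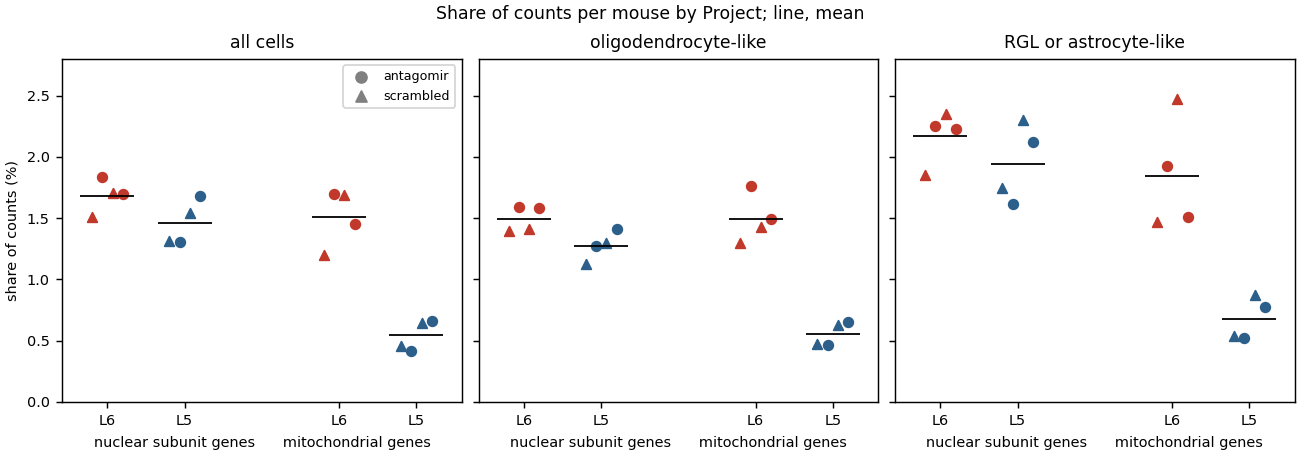
Share of counts held by the nuclear members and by the mitochondrially encoded subunits, in percent, per mouse in Projects L6 and L5, in all cells, oligodendrocyte-like and RGL/astrocyte-like cells; circles are antagomir and triangles scrambled mice, and lines are means. In all cells the members average 1.68% in L6 and 1.46% in L5, and the mitochondrially encoded subunits 1.51% and 0.543%. The latter are the 9 with a row in the count table.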

How the data were processed

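Cells were sorted into plates and sequenced with Smart-seq2. Per the submitters' processing notes, reads were checked with FastQC, STAR 2.5.2 and featureCounts 1.5.1 were used on mm10, and Seurat 2.3.1 is named. The deposited values are raw counts per gene and well. For strand setting, annotation and reads with several matches, the sources used here give nothing. Every well column was used (columns not used: 0).

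Wells with 500 to 6000 detected genes were kept (36 below and 16 above were left out). No doublet caller was run, so wells above the upper limit are the only guard against doublets. Wells were clustered with scanpy 1.11.5 on 2000 variable genes without the members, and clusters were named from fixed markers, with at least 3 markers detected. Counts were summed per mouse, or per mouse and class with at least 3 cells, and tested with edgeR 4.0.16 (filterByExpr, TMM scaling, quasi-likelihood test, Benjamini-Hochberg over all genes tested, threshold 0.05; R 4.3.3). Class comparisons had the mouse as block, the other classes being averaged with equal weight, and Project comparisons had treatment and sort day as covariates. Alternatives used DESeq2 1.42.0, other scalings, no filter, wells thinned to 200000 counts, single Projects and days, and each mouse left out. Levels are CPM and CPM per kb of exon. Intervals of shares are Wilson 95% intervals, which cover counting error only. Scipy 1.17.1 and Python 3.11.15 were used.

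Mice that share Project and sort day were not treated as pairs: the correlations of their deviations from group means ran from -0.005 to 0.147. The fits were tested on simulated data. Members and gene lists were chosen with earlier results of these data known. Named genes are members past the threshold (up to 10 per direction by size) and the 3 with the smallest p per direction in treatment and Project comparisons. Paralog pairs, a fixed list of subunits and the highest and lowest level per kb in each complex are named as well. Exon lengths, gene positions and 3′ UTRs, the longest annotated per gene, come from the GENCODE mouse annotation of the same build. The miRNA and the promoters come from RefSeq on GRCm38.p6. The values of 1 member are not reported here on their own.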

Additional observations from a re-analysis of the deposited data

Results flagged for a closer look

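In 13 of 106 groups of 4 to 8 mice examined, the highest or lowest mouse stood further from the others than Dixon's 95% critical value allows, where chance gives about 1 in 20 groups. In mural-like cells these were Cox4i2 in mouse 8 (1648 CPM, others 681 to 916), Ndufaf1 in mouse 7 (163 CPM, others 0 to 21.5) and Atp5sl in mouse 1 (21.7 CPM, others 0 to 0.510). In endothelial-like cells they were Ndufa4l2 in mouse 5 (10.2 CPM, others 0 to 0.254), Ndufa4 in mouse 7 (654 CPM, others 124 to 271) and Cox8a in mouse 8 (735 CPM, others 69.3 to 326). Mouse 7 had 3 endothelial-like and 6 mural-like wells.

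In RGL/astrocyte-like cells Cox7a1 was high in mouse 1 (17.7 CPM, others 0 to 7.69), Ndufb10 in mouse 7 (632 CPM, others 191 to 342) and Uqcrc1 in mouse 5 among L5 mice (411 CPM, others 295 to 312). In oligodendrocyte-like cells Ndufaf6 was high in mouse 2 among antagomir mice (3.03 CPM, others 0 to 0.271) and Ndufaf4 in mouse 3 among scrambled mice (35.2 CPM, others 7.61 to 10.8). In all cells of scrambled mice, Ndufa10 was low in mouse 3 (103 CPM, others 177 to 185) and Ndufb7 in mouse 1 (120 CPM, others 172 to 179).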

How the results depend on the processing

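No treatment comparison called a member under any alternative, the fit with a replicate block included (0 calls in each of 3), and the block changed no other call there. Of the counts of called members under alternatives, 182 were within 1.5 times the main count and 67 were not. DESeq2 called 12, 11 and 2 members between Projects (all cells, oligodendrocyte-like, RGL/astrocyte-like), 13.3%, 12.6% and 2.3% of members against 6.66%, 9.51% and 1.81% of all genes, and the fit with no covariates 1 in oligodendrocyte-like cells. Between classes the counts of called members were as follows. For RGL/astrocyte-like cells (23): DESeq2 46, library size only 6, no low-count filter 8, within L5 4, within L6 3, without the low-gene cluster (chosen after seeing the data) 12, and 11 to 21 with a mouse left out. For oligodendrocyte-like cells (5): DESeq2 3, RLE scaling 2, library size only 1, no filter 2, within L5 0, within L6 1, and 2 to 5 with a mouse left out. For endothelial-like cells (2): DESeq2 31, RLE 4, no filter 1, no replicate block 5, within either Project 0, without the low-gene cluster 1, without the assembly factors 1, and 1 to 2 with a mouse left out. For mural-like cells (5): DESeq2 13, within either Project 2, and 3 to 5 with a mouse left out. For neuroblast-like cells (7): RLE 4, library size only 1, no filter 2, thinned wells 3, within either Project 0, and 0 to 7 with a mouse left out. For mural-like against endothelial-like cells (4): DESeq2 20, within L5 1, within L6 2, and 2 to 5 with a mouse left out. For RGL/astrocyte-like against oligodendrocyte-like cells (1): DESeq2 14, RLE 4, library size only 4, no filter 0, no replicate block 2, within L6 0, and 1 with any mouse left out. DESeq2 called 39.2%, 36.8%, 39.4%, 32.8% and 33.5% of all genes in the classes in this order, 28.1% for mural-like against endothelial-like cells and 22.6% for RGL/astrocyte-like against oligodendrocyte-like cells. The causes were not tested. Within sort day 1, with 2 mice per treatment, 4 named treatment differences changed sign: Cyc1 (0.06) and Ndufab1 (0.00) in all cells, and Cyc1 (0.09) and Ndufs4 (0.16) in RGL/astrocyte-like cells. The planned limit of 10% mitochondrial counts left out no well and was not run. With 4 mice per group, a 4-fold change was recovered in simulations for 71% of changed genes between Projects. For mural-like cells against the other classes recovery was 3%, and a 16-fold change was recovered for 39%. These simulations too changed only genes above a set mean level in every group.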
